A study of Homo sapiens with 16 samples.

Results

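Enzalutamide given on top of dihydrotestosterone (DHT) was examined in Ver, a VCaP line that had already been kept for 4 months in the drug. The tested libraries were all those whose source label named Ver with 1 nM DHT and 1 µM enzalutamide, and they were set against all those labelled Ver with 1 nM DHT. That makes 4 of the 16 libraries of the series, 2 per group, and 22553 of the 58302 genes in the files had enough reads to test. VCaP is a human prostate cancer line grown from a metastasis, and in it the TMPRSS2 promoter is fused to ERG. Ver cells were kept in 1 µM enzalutamide for 4 months and their partner line, Vc, in ethanol for 4 months. Steroids were then withdrawn for 48 h or more, using charcoal-stripped serum in medium free of phenol red. The 24 h treatments used here were DHT plus enzalutamide, DHT alone, enzalutamide alone and control medium, each in Ver and in Vc. Ver and Vc are 1 line each. The labels do not say whether the 2 libraries of a group came from separate cultures, so the p-values measure the spread between these libraries, which may be technical.

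DHT is the most active natural androgen. It binds the androgen receptor, which moves to the nucleus, binds DNA at pairs of short half-sites and raises or lowers the transcription of nearby genes. Enzalutamide competes for the same binding pocket and keeps the receptor from working as an activator. In prostate cells the raised genes include secretory proteins, lipid synthesis enzymes and the machinery that folds and exports proteins, and other genes are lowered.

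Gene totals were 9554571 and 9659003 counts with DHT plus enzalutamide and 11968431 and 11755772 counts with DHT, within the 8155244 to 13273523 of the whole series. The epithelial identity of the cells was in place: KRT8, a luminal keratin that overlaps KRT18, stood at 642 and 697 CPM (counts scaled to library size) with DHT plus enzalutamide and at 974 and 937 CPM with DHT. HOXB13, a prostate lineage factor, stood at 318 and 313 CPM with DHT plus enzalutamide and at 300.4 and 312 CPM with DHT. Immune markers had 0 to 7 reads in any of the 4 libraries. Of 8 stromal and endothelial markers, COL1A2, DCN and CDH5 had 0 reads and PECAM1 0 to 5, whereas COL1A1, ACTA2, VWF and LUM had reads in each library. In bulk RNA, fewer cells of a kind and less RNA per cell cannot be told apart.

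Adding the drug to DHT changed 6076 genes in Ver (edgeR quasi-likelihood test, p-values adjusted by Benjamini-Hochberg across the 22553 genes, threshold 0.05). Of the genes tested, 3098 were higher with the drug (13.7%) and 2978 were lower (13.2%). At least a 2-fold change was reached by 979 of the higher and 465 of the lower genes, and the median log2 change over all genes was 0.02. Protein-coding genes made up most calls, with 2633 higher and 2617 lower of 14295 tested (36.7% called), whereas 94 and 68 of 1318 lincRNAs were called (12.3%). The split depended on the scaling. With plain library totals in place of TMM factors, 4126 genes were higher and 2104 lower, and the median over all genes moved to 0.11. In a principal component analysis of the 8 Ver libraries, the first component held 55.6% of the variance. On it the DHT plus enzalutamide libraries lay at 11.4 and 19.6, between the DHT libraries at 84.5 and 85.4 and the control libraries at -44.9 and -46.6. The second component, with 10.8%, set them apart at -42.0 and -38.7, where the other 6 Ver libraries lay between -0.947 and 25.7.

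The genes that the drug moved in Ver were mostly those that DHT moves. This was read from the other line, Vc, so that the classes share no library with the comparison. DHT raised 4917 genes in Vc (21.8%) and lowered 5070 (22.5%). Of the raised genes, 2481 were lower and 75 higher when enzalutamide was added to DHT in Ver, and these 2481 are 83.3% of all genes that fell. Of the lowered genes, 2403 were higher and 35 lower, and these 2403 are 77.6% of all genes that rose. The median log2 change ran in order over the classes: -1.11 for the 349 genes that DHT raised at least 4-fold in Vc, -0.52 for the 1260 raised 2- to 4-fold, -0.22 for the 3308 raised less, 0.02 for the 12566 not called, 0.26 for the 2663 lowered under 2-fold, 0.70 for the 1495 lowered 2- to 4-fold and 1.33 for the 912 lowered at least 4-fold. None of those 912 genes fell in Ver.

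**Figure D1:**
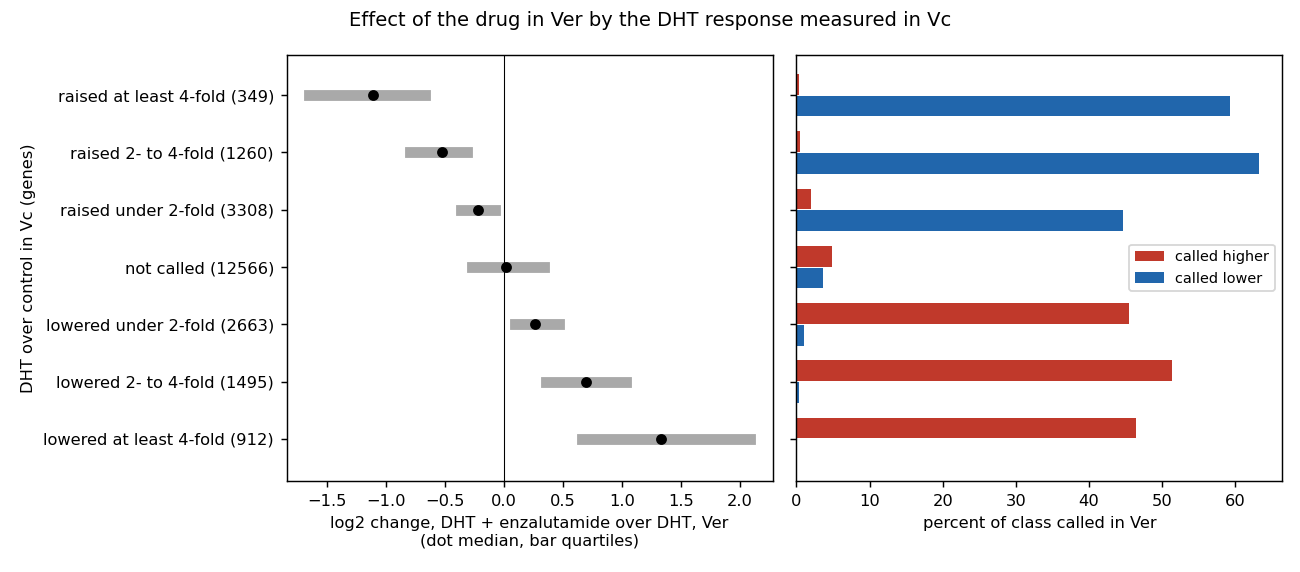
Effect of adding enzalutamide to DHT in Ver, for genes grouped by how DHT moved them in Vc against Vc control (number of genes in brackets). Left, median (dot) and quartiles (bar) of the log2 change, DHT plus enzalutamide over DHT. Right, percent of each class called higher or lower. The medians run from -1.11 in the class DHT raised most to 1.33 in the class it lowered most.

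The androgen-induced list held 39 tested genes, and 30 of them fell and 4 rose when the drug was added, with a median log2 change of -0.95. The steepest falls were in FKBP5, a co-chaperone of steroid receptors at chr6:35573585-35728583 (GRCh38, minus strand). It stood at 114 and 149 CPM with DHT plus enzalutamide and at 1711 and 1845 CPM with DHT, a log2 change of -3.75 (SE 0.071, adjusted p = 4.9e-27). The groups were far apart, and with the drug FKBP5 ended nearer to the 69.0 and 74.1 CPM of the Ver control libraries than to DHT. STEAP4, a metalloreductase (chr7:88270892-88306891, minus strand), stood at 5.34 and 8.21 CPM with DHT plus enzalutamide and at 76.5 and 84.2 CPM with DHT, a log2 change of -3.57 (SE 0.16, adjusted p = 1.7e-50). The control libraries had 0.194 and 0.268 CPM, so most of the DHT signal was gone with the drug but the level stayed above control in both libraries. NCAPD3, a condensin subunit, stood at 122 and 162 CPM with DHT plus enzalutamide and at 1476 and 1558 CPM with DHT, a log2 change of -3.42 (SE 0.082, adjusted p = 1.4e-17). In each of these genes the second DHT plus enzalutamide library was the higher of its pair, as it was in 31 of the 39 androgen-induced genes.

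TMPRSS2, a serine protease gene whose promoter drives the fusion, stood at 206 and 242 CPM with DHT plus enzalutamide and at 702 and 686 CPM with DHT (log2 change -1.63, SE 0.054, adjusted p = 4.5e-59). ERG, the ETS factor under that promoter, stood at 343 and 403 CPM with DHT plus enzalutamide and at 814 and 826 CPM with DHT (log2 change -1.14, SE 0.051, adjusted p = 1.4e-45). Both genes ended above their control levels of 159 and 162 CPM for TMPRSS2 and 240.4 and 233 CPM for ERG. NDRG1, a differentiation and stress gene, stood at 2334 and 2574 CPM with DHT plus enzalutamide and at 5857 and 5845 CPM with DHT, and ZBTB16, a transcription factor, at 131 and 134 CPM and at 404 and 409 CPM. The 15 largest falls among genes averaging 5 CPM or more also held the cytokine receptor LIFR (log2 change -2.31), the guanine exchange factor DOCK8 (-3.52), the transcription factor GLIS3 (-2.56), MUM1L1 (-3.06) and the engulfment gene ELMO1 (-2.31). SNORA40 (-5.41) and AL033519.1 (-3.49) lie within FKBP5 and AP001775.1 (-3.80) within NCAPD3, and their reads cannot be told apart with certainty from those of the host genes in unstranded counts.

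Some classical androgen targets did not follow. KLK3, which encodes prostate-specific antigen, stood at 84.6 and 74.6 CPM with DHT plus enzalutamide and at 87.2 and 86.7 CPM with DHT, and it was not called (log2 change -0.13, SE 0.085, adjusted p = 0.295). Its paralogue KLK2 stood at 4794.5 and 4892 CPM with DHT plus enzalutamide and at 5546 and 5262 CPM with DHT, a log2 change of -0.16 (SE 0.041, adjusted p = 0.00104). That call was lost without the first DHT library (adjusted p = 0.0778) and with plain library totals (adjusted p = 0.252). Reads of KLK2 and KLK3 may be split by their similar sequence. The control libraries had 39.2 and 36.9 CPM of KLK3 and 2490.3 and 2605 CPM of KLK2, so both stayed above control with the drug present.

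The 4 androgen-induced genes that rose included SLC45A3, TRPM8 and ACPP. SLC45A3, which encodes prostein, stood at 1149 and 1195 CPM with DHT plus enzalutamide and at 1044 and 984 CPM with DHT (log2 change 0.21, SE 0.048, adjusted p = 0.000174). TRPM8, a cold-sensing calcium channel (chr2:233917398-234019522, plus strand), stood at 71.9 and 70.4 CPM with DHT plus enzalutamide and at 45.7 and 52.7 CPM with DHT (log2 change 0.53, SE 0.079, adjusted p = 5.1e-09). In both genes the control was lower still, at 22.2 and 18.5 CPM for TRPM8 and 464 and 513 CPM for SLC45A3, so of the Ver groups the one with both compounds was highest. ACPP, prostatic acid phosphatase, differed in that DHT itself lowered it in Ver. It stood at 2371 and 2205 CPM with DHT plus enzalutamide, at 1175 and 1186 CPM with DHT and at 4565 and 4572 CPM in control (log2 change over DHT 0.95, SE 0.043, adjusted p = 5.5e-45).

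**Figure D2:**
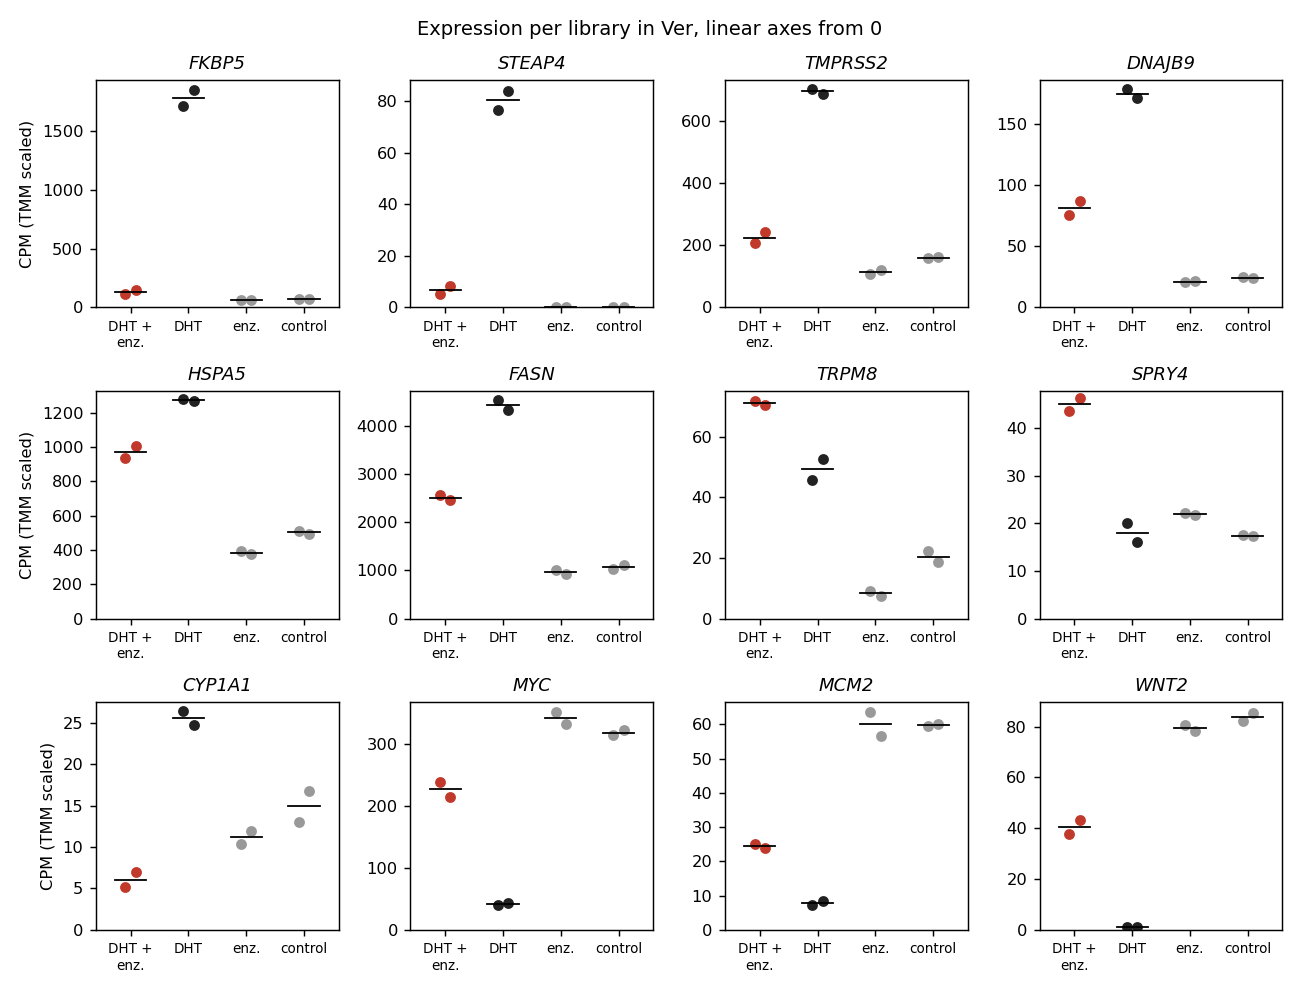
Expression of 12 genes in the 8 Ver libraries, in CPM on linear axes from 0. Points are single libraries and lines the mean of 2, with DHT plus enzalutamide in red, DHT in black, and enzalutamide alone and control in grey. FKBP5 and STEAP4 are far below DHT with both compounds and above control, HSPA5 and FASN lie between DHT and control, TRPM8 and SPRY4 are highest with both compounds, and MYC, MCM2 and WNT2 are lowest with DHT.

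Protein export genes fell together. All 30 genes of the unfolded protein response list fell (0 rose, median log2 change -0.46), where 13.2% of all genes did. The call of ERO1B, an oxidase of the compartment, was lost without the first DHT plus enzalutamide library (adjusted p = 0.304) and without the second DHT library (adjusted p = 0.157). This response senses unfolded protein in the endoplasmic reticulum through ERN1, PERK and ATF6 and raises chaperones and degradation factors. ERN1, the sensor kinase that splices XBP1, stood at 85.01 and 93.2 CPM with DHT plus enzalutamide and at 217 and 210.2 CPM with DHT (log2 change -1.26, SE 0.068, adjusted p = 1.6e-37). HSPA5, the chief chaperone of the compartment (chr9:125234853-125241330, minus strand), stood at 935 and 1004 CPM with DHT plus enzalutamide, at 1283 and 1267 CPM with DHT and at 514 and 492 CPM in control. Its log2 change over DHT was -0.40 (SE 0.047, adjusted p = 1.2e-12), and the levels of the groups did not overlap. Of the transport list (signal recognition, translocon, COPI and COPII coats), 29 of 30 genes fell and 0 rose, with a median of -0.50, and KDELR3, a retrieval receptor, was not called (-0.26, adjusted p = 0.23). SSR3, a translocon-associated subunit, stood at 435 and 454 CPM with DHT plus enzalutamide and at 766 and 783 CPM with DHT (log2 change -0.80, SE 0.051, adjusted p = 5.1e-31). SEC24D, a COPII cargo adaptor, stood at 131 and 138 CPM with DHT plus enzalutamide and at 254 and 259 CPM with DHT (log2 change -0.93, SE 0.062, adjusted p = 6.35e-29). SEC23A, which forms the inner COPII coat (chr14:39031919-39109646, minus strand), had a log2 change of -0.48 (SE 0.07, adjusted p = 3.5e-09).

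The promoters of these genes were searched for the letters of known stress elements. Windows ran from 250 bases before to 50 bases after each annotated start in RefSeq (GRCh38.p14), and both strands were searched. The ER stress element, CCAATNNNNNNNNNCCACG, was found in 8 of the 29 unfolded protein response genes with a window (27.6%), in 0 of 27 transport genes and in 0.0916% of all 27305 genes. The core of the UPR element, TGACGTG, was found in 10 of 27 transport genes (37.0%), in 2 of 29 unfolded protein response genes (6.9%) and in 2.4% of all genes. The half-site of the androgen receptor, AGAACA, was found in 5 of 28 androgen-induced genes (17.9%) and in 17.5% of all genes. All genes here are those with a window, tested or not, and a gene counted where any of its windows matched. Windows per gene averaged 1.679 for androgen-induced, 1.241 for unfolded protein response, 1.407 for transport and 1.286 for all genes. A match in letters is a description and not a bound site. The promoters of HSPA5 (chr9:125241294-125241593, minus strand, GRCh38.p14) and SEC23A (chr14:39103186-39103485, minus strand) are shown because they carry these letters, with the matching bases in capitals.
HSPA5: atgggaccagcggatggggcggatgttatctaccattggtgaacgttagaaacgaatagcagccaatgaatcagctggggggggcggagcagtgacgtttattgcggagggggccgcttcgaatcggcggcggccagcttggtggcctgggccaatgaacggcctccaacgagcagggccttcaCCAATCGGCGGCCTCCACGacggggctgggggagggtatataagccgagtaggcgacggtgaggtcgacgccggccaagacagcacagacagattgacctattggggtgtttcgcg
SEC23A: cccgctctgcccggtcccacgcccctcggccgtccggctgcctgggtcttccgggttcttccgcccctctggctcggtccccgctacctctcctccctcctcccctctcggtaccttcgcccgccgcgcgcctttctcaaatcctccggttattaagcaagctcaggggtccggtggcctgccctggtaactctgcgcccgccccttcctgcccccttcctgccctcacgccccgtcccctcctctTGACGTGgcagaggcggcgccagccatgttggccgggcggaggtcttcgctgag

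Related groups moved with them. Of 31 glycosylation and sugar nucleotide genes, 20 fell and 1 rose (median log2 change -0.38). The riser was the sialyltransferase ST6GALNAC1 (28.6 and 25.9 CPM with DHT plus enzalutamide, 23.4 and 18.8 CPM with DHT, adjusted p = 0.0404). Its call was lost without either DHT plus enzalutamide library or the second DHT library (log2 changes 0.30, 0.44 and 0.22). With all libraries kept it was lost with DESeq2 (adjusted p = 0.106), DESeq2-type size factors (0.0552) and no low-count filter (0.0562), and the list then held 0 risers. Of 21 genes of the amino acid stress response under ATF4, 19 fell and 0 rose (median -0.55), and SLC7A5 and ATF5 were not called. ATF3, a stress-induced repressor, stood at 14.9 and 17.2 CPM with DHT plus enzalutamide and at 54.7 and 48.8 CPM with DHT (log2 change -1.69, SE 0.15, adjusted p = 1.2e-18). DDIT3, the stress factor CHOP, stood at 32.1 and 38.2 CPM and at 86.1 and 81.9 CPM (log2 change -1.26), though it overlaps MARS and MBD6. The second DHT plus enzalutamide library was above the first in 26 of 30 unfolded protein response genes, 28 of 30 transport genes and 21 of 21 ATF4 genes, so on most of these genes too it lay nearer to DHT. In the glycosylation list it was above in 16 of 31. In the cytosolic ribosomal protein list, described below, it was above in 23 of 30. That list rose with the drug, so there a higher level lay away from DHT. The share over all genes was not counted, for these lists or the androgen-induced one.

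Lipid genes split. Of 17 fatty acid synthesis genes, 10 fell and 1 rose (median log2 change -0.36). FASN, the fatty acid synthase, stood at 2570.3 and 2459 CPM with DHT plus enzalutamide and at 4552 and 4342 CPM with DHT (log2 change -0.82, SE 0.045, adjusted p = 1.2e-36). ACSL3, which activates long fatty acids, fell by 1.49 on the log2 scale. SCD, a desaturase, was the riser, at 822 and 738 CPM with DHT plus enzalutamide and 704 and 670.01 CPM with DHT, and without the first DHT plus enzalutamide library or the second DHT library 0 genes of the list rose. Cholesterol genes moved less: 9 of 27 fell and 1 rose (median -0.14), beside 13.2% and 13.7% of all genes. IDI1, MSMO1 and HMGCS1, enzymes of the pathway, had log2 changes of -0.70, -0.66 and -0.45. The riser was the sterol reductase TM7SF2 (log2 change 0.32), which overlaps VPS51. With DHT plus enzalutamide the cholesterol list remained far above control, as described below beside some of the other lists.

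Genes that androgen holds down rose. Of 19 androgen-repressed genes, 14 rose and 0 fell, with a median log2 change of 1.20, against 13.7% of all genes that rose. MYC, the growth-promoting transcription factor, stood at 239 and 215 CPM with DHT plus enzalutamide, at 40.3 and 43.1 CPM with DHT and at 315 and 323 CPM in control (log2 change over DHT 2.45, SE 0.066, adjusted p = 6.9e-73). The 3 groups did not overlap, and DHT plus enzalutamide lay nearer to control. WNT2, a secreted Wnt ligand (chr7:117275451-117323289, minus strand), stood at 37.6 and 43.4 CPM with DHT plus enzalutamide and at 0.981 and 1.11 CPM with DHT (log2 change 5.26, SE 0.31, adjusted p = 3.1e-56). Control libraries had 82.0 and 85.4 CPM of WNT2. PLA2G2A, a secreted phospholipase, stood at 46.0 and 50.4 CPM with DHT plus enzalutamide and at 11.1 and 9.78 CPM with DHT (log2 change 2.20, SE 0.12, adjusted p = 5.9e-40). BCHE had 9 and 10 reads with DHT plus enzalutamide and 0 in both DHT libraries. The 15 largest rises also held the orphan receptor GPR149 (log2 change 4.54), the matrix proteoglycan LUM (4.35), the homeobox repressor TGIF2 (3.16), the cadherin CDH26 (2.92), MATK (2.66), B3GALT5 (2.62), RIMS4 (2.60), the growth factors HGF and BMP7 (2.54 each) and the RNA-binding gene MEX3A (2.49).

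Steroid-clearing enzymes were among them. The UGT2B enzymes attach glucuronic acid to androgens, which inactivates them. Of 6 tested members, 5 rose and 1 fell (median log2 change 2.97). UGT2B15 stood at 51.5 and 48.6 CPM with DHT plus enzalutamide, at 6.15 and 6.18 CPM with DHT and at 86.7 and 83.5 CPM in control (log2 change over DHT 3.02, SE 0.15, adjusted p = 5.6e-45). UGT2B10 had a log2 change of 3.44, UGT2B17 of 2.93 and UGT2B4 of 0.40, and UGT2B7 rose at 1.05 CPM or less. UGT2B11 was the one that fell (-1.73), a call lost without the second DHT plus enzalutamide library (adjusted p = 0.0656). That of UGT2B4 was lost without the first DHT plus enzalutamide library (log2 change 0.26) and without the second DHT library (log2 change 0.28). With all libraries kept it was lost with DESeq2 (adjusted p = 0.127), DESeq2-type size factors (0.0604) and no low-count filter (0.073). These genes are close copies of each other, so how their reads were split is uncertain. Of 13 androgen synthesis and conversion genes, AKR1C3, which makes testosterone, and HSD17B6 rose (log2 changes 1.28 and 1.96), and HSD17B4, SRD5A1 and CYB5A fell (-0.42, -0.74 and -0.41). The other 8 of these 13 were not called, and among all genes tested 13.7% rose and 13.2% fell. Of 14295 protein-coding genes, 2633 rose and 2617 fell. AKR1C3 shares sequence with other AKR1C genes, and HSD17B6 overlaps PRIM1.

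Transcripts of ribosome biogenesis genes rose. Of 30 nucleolar ribosome biogenesis genes, 23 rose and 0 fell, with a median log2 change of 0.57. DKC1, the pseudouridine synthase of the nucleolus, stood at 87.2 and 87.2 CPM with DHT plus enzalutamide, at 45.7 and 45.0 CPM with DHT and at 86.6 and 90.3 CPM in control (log2 change over DHT 0.94, SE 0.079, adjusted p = 1.5e-21). NOP56, a core protein of box C/D particles, stood at 150.2 and 132 CPM, 87.1 and 75.9 CPM, and 136 and 144 CPM in the same order (log2 change 0.79, SE 0.068, adjusted p = 1.5e-20). For both genes the libraries with both compounds lay above DHT and near control. BYSL, a small-subunit assembly factor (chr6:41921188-41933046, plus strand), stood at 23.2 and 21.2 CPM with DHT plus enzalutamide and at 10.4 and 11.7 CPM with DHT (log2 change 1.00, SE 0.15, adjusted p = 1e-08). Of 30 cytosolic ribosomal protein genes, 23 rose and 0 fell, but only by a median of 0.19, and with plain library totals 29 did. The MYC E-box, CACGTG, was found in the promoter windows of 12 of 24 nucleolar genes (50.0%) and in 8.77% of all genes. The window of BYSL (chr6:41921249-41921548, plus strand, GRCh38.p14) is shown as an example, with the E-box in capitals.
BYSL: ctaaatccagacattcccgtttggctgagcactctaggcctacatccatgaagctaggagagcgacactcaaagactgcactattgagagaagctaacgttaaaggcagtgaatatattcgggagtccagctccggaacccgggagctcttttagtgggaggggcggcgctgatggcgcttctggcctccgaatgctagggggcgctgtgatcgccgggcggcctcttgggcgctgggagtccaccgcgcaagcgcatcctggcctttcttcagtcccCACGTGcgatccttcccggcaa

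DNA replication genes rose, from a low level under DHT. Of 35 replication and G1/S genes, 22 rose and 3 fell, with a median log2 change of 0.57. MCM6, a subunit of the replicative helicase (chr2:135839626-135876426, minus strand), stood at 16.02 and 15.6 CPM with DHT plus enzalutamide, at 8.11 and 9.14 CPM with DHT and at 35.9 and 33.3 CPM in control (log2 change over DHT 0.87, SE 0.16, adjusted p = 1.4e-06). MCM4, another subunit, stood at 54.9 and 46.8 CPM, 28.4 and 27.04 CPM, and 111 and 119 CPM in the same order (log2 change 0.88, SE 0.092, adjusted p = 1.8e-15). MCM2 rose by 1.65 on the log2 scale but overlaps TPRA1, and UHRF1, which copies DNA methylation, rose by 1.54. In these genes DHT plus enzalutamide lay between DHT and control, without overlap. CDC6, RPA3 and GINS3 fell (-0.47, -0.55 and -1.03), and RPA3 overlaps UMAD1. The RPA3 call was lost without any of the 4 libraries (log2 change -0.59 to -0.52). With all libraries kept it was lost with DESeq2 (adjusted p = 0.0521), no low-count filter (0.0599) and plain library totals (0.0896). That of GINS3 was lost without the second DHT plus enzalutamide library (log2 change -0.92) and without the second DHT library (-0.98). Without the first DHT plus enzalutamide library, or without the first DHT library, 14 members rose, and without either second library 1 fell. An E2F site (TTTGGCGC, TTTCCCGC or TTTCGCGC, whose matches on opposite strands can overlap) was found in the windows of 19 of 30 of these genes (63.3%) and in 3.3% of all genes. The window of MCM6 (chr2:135876394-135876693, minus strand, GRCh38.p14) holds 4 such matches in 2 overlapping pairs, shown in capitals.
MCM6: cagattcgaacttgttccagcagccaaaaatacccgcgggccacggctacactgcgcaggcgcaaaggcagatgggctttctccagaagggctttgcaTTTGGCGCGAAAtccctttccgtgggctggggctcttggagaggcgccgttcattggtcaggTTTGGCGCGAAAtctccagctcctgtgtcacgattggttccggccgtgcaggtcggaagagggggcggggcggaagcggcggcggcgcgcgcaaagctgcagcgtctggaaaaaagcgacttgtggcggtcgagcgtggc

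Later cell cycle genes moved less. Of 32 mitosis genes, 15 rose and 0 fell (median log2 change 0.42). TTK, a spindle checkpoint kinase, stood at 12.6 and 13.5 CPM with DHT plus enzalutamide and at 5.44 and 8.40 CPM with DHT (log2 change 0.91, SE 0.18, adjusted p = 1.2e-05), and MKI67, the proliferation marker, had a log2 change of 0.48. Without the first DHT plus enzalutamide library 8 rose, and without the first DHT library 7. Of 17 G1 cyclins, kinases and inhibitors, 4 rose (RBL1, E2F3, CDK4 and SKP2) and 8 fell, beside 13.7% and 13.2% of all genes. Of 14295 protein-coding genes, 2633 rose and 2617 fell. E2F3, an S-phase activator, stood at 94.1 and 80.8 CPM with DHT plus enzalutamide and at 37.4 and 41.4 CPM with DHT (log2 change 1.15, SE 0.08, adjusted p = 5.4e-28). CDKN1A, the inhibitor p21, stood at 110.3 and 115 CPM with DHT plus enzalutamide, at 222 and 211 CPM with DHT and at 40.8 and 38.6 CPM in control (log2 change over DHT -0.94, SE 0.066, adjusted p = 1.6e-27). The inhibitors CDKN2B and CDKN1B also fell (-1.68 and -0.54). The count of falls in this list was 4 or 5 without the second or the first DHT plus enzalutamide library, 5 without the second DHT library and 4 with plain library totals.

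Genes that the glucocorticoid receptor shares with the androgen receptor fell. Of 13 such targets, 12 fell and 0 rose (median log2 change -0.97). FKBP5, SGK1 and ZBTB16 are also in the androgen-induced list. ERRFI1, a feedback inhibitor of the EGF receptor, stood at 57.9 and 68.0 CPM with DHT plus enzalutamide and at 222 and 217 CPM with DHT (log2 change -1.80, SE 0.071, adjusted p = 9.2e-53). PER1, a clock gene, had a log2 change of -1.48. NR3C1, the glucocorticoid receptor itself, stood at 9.74 and 6.95 CPM with DHT plus enzalutamide and at 12.8 and 10.1 CPM with DHT, and it was not called (log2 change -0.46, SE 0.21, adjusted p = 0.097). Without the first DHT plus enzalutamide library it was called (log2 change -0.72, adjusted p = 0.0457).

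In several other lists a few genes changed. Of 16 ERK feedback and ETS genes, DUSP4, SPRY1 and SPRY4 rose and EGR1, ERG and FOS fell. These counts of 3 each stand beside 13.7% and 13.2% of all genes, and 2633 and 2617 of 14295 protein-coding genes. The FOS call was lost with DESeq2 (adjusted p = 0.0697). It was also lost without either DHT plus enzalutamide library or the second DHT library (log2 changes -1.35, -1.26 and -1.05). That of DUSP4 was lost without the second DHT library (log2 change 1.77). SPRY4, an inhibitor of receptor kinase signalling (chr5:142310427-142326455, minus strand), stood at 43.7 and 46.3 CPM with DHT plus enzalutamide, at 20.1 and 16.1 CPM with DHT and at 17.6 and 17.4 CPM in control. Its log2 change over DHT was 1.31 (SE 0.12, adjusted p = 3.3e-20), and both libraries with both compounds were above all others of Ver. Of 13 polyamine genes, 3 rose and 7 fell (4 with plain library totals), among them ODC1, the first enzyme of the pathway (-1.24), and SAT1, which degrades polyamines (-0.83). Of 23 glycolysis and hypoxia genes, 5 rose (3 without the second DHT library) and 6 fell, with PFKM (0.92) and PKM (0.61) up and NDRG1 and VEGFA (-0.72) down. PFKM overlaps SENP1. Of 14 heat shock genes, 0 rose and 6 fell. That count was 2 without the first DHT plus enzalutamide library and 3 without the second DHT library, and with plain library totals 3 rose and 3 fell. Of 13 mitochondrially encoded genes, MT-ND5 and MT-ND6 rose, and 0 did with DESeq2. Without 1 of the 4 libraries 0 or 1 rose, whereas 11 did with plain library totals. OAS3 rose (log2 change 0.79) alone among 18 interferon genes.

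Lineage markers changed in part. Of 16 epithelial and luminal genes, 7 fell and 1 rose, beside 13.2% and 13.7% of all genes. SPDEF, an ETS factor of luminal cells, stood at 355 and 392.03 CPM with DHT plus enzalutamide and at 845 and 815 CPM with DHT (log2 change -1.15, SE 0.051, adjusted p = 3.1e-46). The count of risers was 2 without the second DHT plus enzalutamide library and 4 with plain library totals. Of 16 tested neuroendocrine and neural genes, INSM1, NCAM2 and DLL3 rose and 0 fell. That is 3 of 16 beside the 13.7% of all genes, and the 2633 of 14295 protein-coding genes, that rose. INSM1, a neuroendocrine transcription factor, stood at 64.6 and 50.6 CPM with DHT plus enzalutamide, at 22.8 and 22.5 CPM with DHT and at 35.5 and 32.8 CPM in control (log2 change over DHT 1.35, SE 0.13, adjusted p = 1.7e-17). Chromogranin A (CHGA) had 38 and 31 reads with DHT plus enzalutamide and 28 and 32 with DHT, and it was not called. DLL3 was lost without the first DHT plus enzalutamide library (adjusted p = 0.134) and without the first DHT library (adjusted p = 0.208). The summed level of the neuroendocrine list was 104 to 120 CPM with DHT plus enzalutamide and 69.4 to 74.6 CPM with DHT. Without INSM1 it was 54.96 and 52.95 CPM with DHT plus enzalutamide and 46.55 and 52.04 CPM with DHT. Of the basal list, 4 of 8 genes were tested and 0 called, KRT5 and KRT17 had 0 reads, and the sum was 177 to 188 CPM with DHT plus enzalutamide and 166 to 194 CPM with DHT. Of the stromal and endothelial list, 4 of 8 genes were tested and LUM rose, with a sum of 20.8 to 30.9 CPM with DHT plus enzalutamide and 4.64 to 5.44 CPM with DHT. LUM had 228 and 164 reads with DHT plus enzalutamide and 9 and 13 with DHT. COL1A1 had 22 and 14 reads with DHT plus enzalutamide and 25 and 21 with DHT, VWF 27 and 12 against 9 and 14, and ACTA2 18 and 8 against 9 and 11, none of them called. Their part in other results was not tested.

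How far the drug took Ver cells back was read against Ver control medium. This comparison shares the DHT plus enzalutamide libraries with the one above, so the values are given side by side only. With both compounds, 2788 genes were higher than in control (12.4%) and 2329 lower (10.3%). That split also depended on the scaling. Plain library totals gave 1977 higher and 3427 lower genes, and the median over all genes moved from -0.02 to -0.115. Of the 39 androgen-induced genes, 29 were still higher than control and 3 lower (median log2 change 0.60), with FKBP5 at 0.88, TMPRSS2 at 0.48 and STEAP4 at 4.80, the last from 0.268 CPM or less in control. In the secretory lists, 28 of 30 unfolded protein response genes were higher (median 0.95, all but ERO1B and ERO1A), all 30 transport genes (median 0.82) and 19 of 21 ATF4 genes (median 0.89), with 0 lower in each. Of the cholesterol list, 25 of 27 were higher and 0 lower (median 0.88), with IDI1 at 1.24 over control beside -0.70 over DHT. Of the androgen-repressed genes, 12 of 19 were lower than control and 0 higher (median -1.06), with MYC at -0.49 and WNT2 at -1.05. Of the replication genes, 26 of 35 were lower and 0 higher (median -0.72), and MCM6 was at -1.13. The nucleolar genes lay on both sides of control, with 3 higher and 4 lower of 30 and a median of -0.004. Under plain library totals 2 were higher and 8 lower, with a median of -0.0996. DKC1 and NOP56 were not called, at -0.02 and 0.01.

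**Figure D3:**
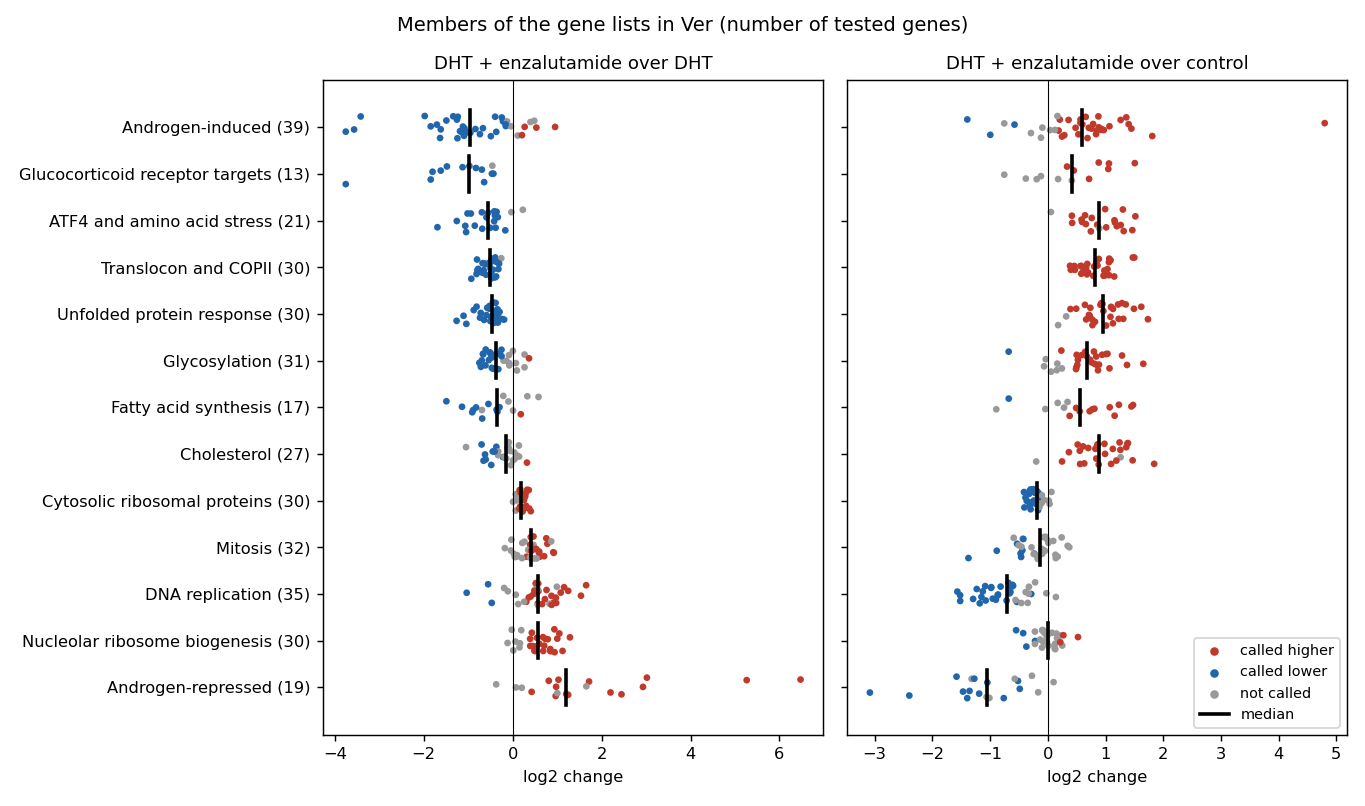
Log2 change of each tested member of 13 gene lists in Ver, left for DHT plus enzalutamide over DHT and right for DHT plus enzalutamide over control. Points are genes (red called higher, blue called lower, grey not called) and black bars are medians, with the number of tested genes in brackets. The unfolded protein response median is -0.46 on the left and 0.95 on the right, and the nucleolar median is 0.57 on the left and -0.004 on the right. Both panels use the DHT plus enzalutamide libraries.

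CYP1A1, CDH26, SPRY4 and INSM1 did not end between DHT and control. CYP1A1, an enzyme of xenobiotic metabolism (chr15:74719542-74725610, minus strand), stood at 5.13 and 6.95 CPM with DHT plus enzalutamide, at 26.5 and 24.8 CPM with DHT and at 13.1 and 16.7 CPM in control. It was lower than DHT (log2 change -2.09, SE 0.18, adjusted p = 3.5e-22) and lower than control (-1.31, SE 0.19, adjusted p = 6.99e-10). CDH26 stood at 37.6 and 35.4 CPM with DHT plus enzalutamide, at 3.83 and 5.81 CPM with DHT and at 24.3 and 26.6 CPM in control, and it was higher than both (log2 changes 2.92 and 0.52, adjusted p = 0.00213 for the second). SPRY4 was 1.37 and INSM1 0.75 above control on the log2 scale (adjusted p = 4.45e-21 and 1.01e-07). These 4 genes were chosen after their values were seen.

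Fewer genes were called for the drug in Ver cells without DHT. Enzalutamide alone raised 106 genes (0.47%) and lowered 149 (0.661%) against control, in libraries not shared with the main comparison. Of the 106, 65 were also higher with the drug on top of DHT (61.3% of the 106 and 2.1% of the 3098) and 15 were lower. Of the 149, 94 were also lower (63.1% of the 149 and 3.16% of the 2978) and 25 were higher. Over the 12179 genes averaging 5 CPM or more, the log2 changes of the 2 comparisons had a Pearson r of 0.103. Over all 22553 genes tested it was 0.0343. The effect with DHT minus the effect without it was higher for 2079 genes (9.22%) and lower for 1688 (7.48%). FKBP5, at 61.4 and 60.5 CPM with enzalutamide alone and 69.0 and 74.1 CPM in control, had a difference of -3.52 (SE 0.11, adjusted p = 5.1e-21), and MYC one of 2.34 (SE 0.085, adjusted p = 7.8e-56).

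TRPM8 and SLC45A3 moved in opposite directions with and without DHT, whereas PMEPA1, HSPA5 and KLK2 had negative log2 changes in both. Enzalutamide alone lowered TRPM8 to 9.20 and 7.44 CPM, against 22.2 and 18.5 CPM in control (log2 change -1.30, SE 0.13, adjusted p = 6.6e-15), whereas on top of DHT it raised TRPM8 by 0.53. The difference was 1.83 (SE 0.16, adjusted p = 2.5e-21). SLC45A3 stood at 266 and 281 CPM with enzalutamide alone and at 464 and 513 CPM in control (log2 change -0.84), and its difference was 1.05 (SE 0.069, adjusted p = 7.4e-29). PMEPA1, a feedback inhibitor of TGF-beta signalling, had log2 changes of -0.37 on top of DHT and -0.94 with the drug alone, a difference of 0.57 (SE 0.065, adjusted p = 4.6e-13). HSPA5 stood at 392.4 and 377 CPM with enzalutamide alone and at 514 and 492 CPM in control, a log2 change of -0.39 beside -0.40 on top of DHT. The difference between these effects was -0.01 and was not called (SE 0.068, adjusted p = 0.964). KLK2 fell by 0.32 with the drug alone.

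The same addition was made in Vc, in libraries not shared with Ver. There 2588 genes rose (11.5%) and 2471 fell (11.0%). The lines had 1796 risers in common (58.0% of those in Ver and 69.4% of those in Vc) and 1779 fallers (59.7% and 72.0%), whereas 5 and 6 genes were called in opposite directions. Over the 12179 genes averaging 5 CPM or more, which are not independent of each other, Pearson's r between the log2 changes was 0.803 and Spearman's rho 0.761. Over all 22553 genes tested, which include those with few reads, r was 0.4874 and rho 0.5045. Per the labels, all Ver libraries were run on one sequencing lane and all Vc libraries on another. Each effect is within a lane, but the difference between the lines is also one between lanes.

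The effect itself differed between the lines for 291 genes (Ver minus Vc), higher for 144 (0.638%) and lower for 147 (0.652%). The androgen-induced list had 14 of its 39 genes among the lower differences and 0 among the higher. For the 13 whose level fell in Ver, all but ACPP, the log2 change was more negative in Ver than in Vc. STEAP4 stood at 5.34 and 8.21 CPM with DHT plus enzalutamide and 76.5 and 84.2 CPM with DHT in Ver, and at 18.7 and 17.8 CPM and 85.2 and 84.0 CPM in Vc. The levels with DHT overlapped between the lines, and those with the drug did not overlap (difference -1.35, SE 0.20, adjusted p = 5.5e-07). FKBP5 stood at 228 and 253 CPM with DHT plus enzalutamide and 1761 and 1784 CPM with DHT in Vc, a difference of -0.87 (SE 0.098, adjusted p = 2.1e-06). TMPRSS2 had a difference of -0.45 (SE 0.076, adjusted p = 2.1e-05), ERG of -0.42 (SE 0.071, adjusted p = 3.6e-05), ZBTB16 of -0.55 (SE 0.078, adjusted p = 2.6e-07) and LIFR of -0.51 (SE 0.084, adjusted p = 1.1e-05). With DHT alone, TMPRSS2 stood at 702 and 686 CPM in Ver and at 794 and 803 CPM in Vc. ERG stood at 814 and 826 CPM and at 923 and 908 CPM, so both were lower in Ver. STEAP4, TMPRSS2, ERG, ZBTB16 and LIFR were called under every alternative run, and FKBP5 under all but the fit on the groups of the contrast alone (adjusted p = 0.176).

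Genes that the drug raised more in Ver included MYC and PLA2G2A. MYC stood at 204 and 208 CPM with DHT plus enzalutamide and 51.3 and 54.2 CPM with DHT in Vc, a difference of 0.48 (SE 0.091, adjusted p = 0.000281). PLA2G2A stood at 17.7 and 17.1 CPM with DHT plus enzalutamide and 9.53 and 9.04 CPM with DHT in Vc, a difference of 1.30 (SE 0.18, adjusted p = 1.3e-07). In both, the levels with both compounds were higher in Ver, without overlap. For MYC the level with DHT alone was also lower in Ver, at 40.3 and 43.1 CPM, without overlap, so both levels entered its difference. CYP1A1 stood at 13.0 and 13.1 CPM with DHT plus enzalutamide and 15.03 and 18.0 CPM with DHT in Vc, where its log2 change of -0.33 was not called (adjusted p = 0.115). Its difference was -1.75 (SE 0.24, adjusted p = 3.1e-08). NMNAT2, an NAD synthesis enzyme, stood at 1.47 and 1.16 CPM with DHT plus enzalutamide and 3.83 and 2.68 CPM with DHT in Ver, and at 14.7 and 14.1 CPM and 9.44 and 9.25 CPM in Vc, so its direction was opposite (difference -1.93, SE 0.41, adjusted p = 0.00127). Its fall within Ver was not called without the first DHT library (adjusted p = 0.0738). The count of 291 rests on few libraries. It was 93 without the first DHT plus enzalutamide library of Ver, 142 without the second DHT library of Ver, 128 without the first DHT plus enzalutamide library of Vc, and 150 and 169 without the first and the second DHT library of Vc.

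**Figure D4:**
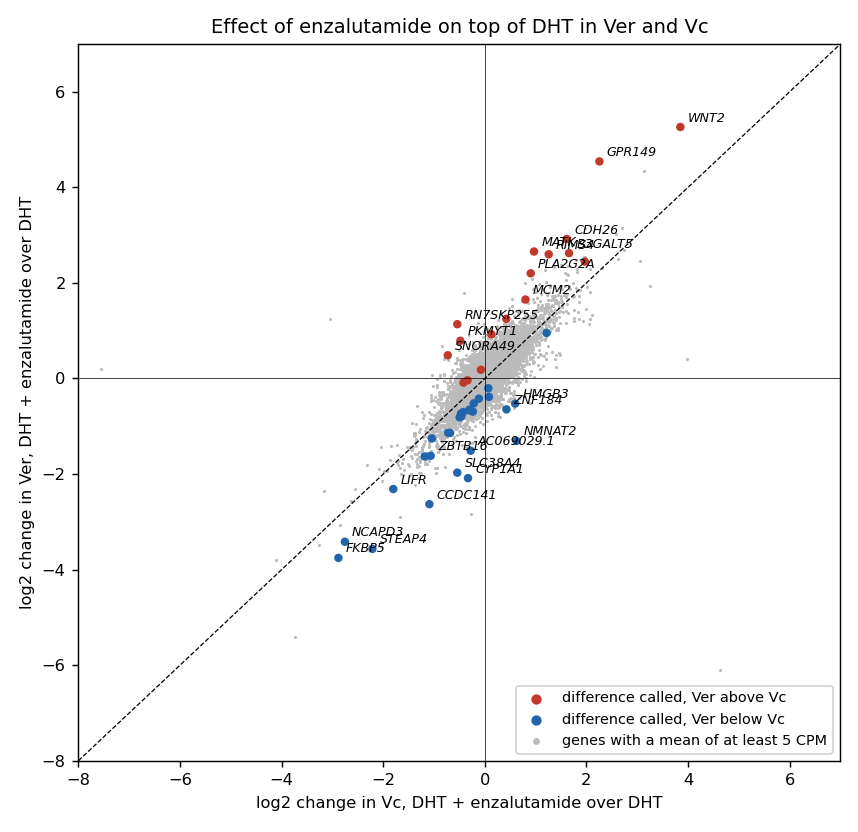
Log2 change with enzalutamide on top of DHT in Ver (vertical) against Vc (horizontal). Grey points are genes averaging 5 CPM or more, coloured points are named genes whose difference between the lines was called (red Ver above Vc, blue Ver below Vc), and the dashed line marks equal effects. FKBP5, STEAP4 and CYP1A1 lie below the line and WNT2, GPR149 and PLA2G2A above it.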

How the data were processed

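RNA-seq was measured in 16 libraries of 8 groups, 2 per group. Per the submitters' processing notes, the authors used FastQC 0.11.7, Trimmomatic 0.36-5, HISAT2, SAMtools and HTSeq 0.11.1 with GRCh38. The deposited per-library files hold raw read counts per gene, which the authors made without strand information and in union mode, per the file names. The 5 summary lines of each file were set aside; reads in no feature were 45.0 to 50.6% and ambiguous reads 7.09 to 8.55%. The authors' deposited table of normalized signal equals these counts divided by size factors (largest relative deviation 4.95e-10) and gave only gene names, for 40888 genes. Positions came from GENCODE 29.

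Genes were kept by edgeR's filterByExpr, scaled by TMM and tested with edgeR 4.0.16 (R 4.3.3), robust quasi-likelihood F test, in 1 fit over all 16 libraries with a term per group (8 residual degrees of freedom, common biological variation 6.01%). P-values were adjusted by Benjamini-Hochberg over 22553 genes, with 0.05 as the threshold. CPM uses TMM library sizes, and SE is that of the log2 change. The principal component analysis used log2 CPM, with an average of 2 reads, scaled to library size, added to each count beforehand. Alternatives were DESeq2 1.42.0, other scalings and filters, no robust estimation, a replicate term, the groups of a contrast alone and each library left out.

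The genes named were a panel of 9 (FKBP5, KLK2, KLK3, TMPRSS2, ERG, MYC, NR3C1, UGT2B15, UGT2B17), the 15 largest rises and falls among genes averaging 5 CPM or more, the 4 smallest p-values of each list, the 8 largest rises and falls of each difference, list members behind a count of 5 or fewer, and further list members chosen after their values were seen. The members and the 27 lists were chosen with earlier results of these data known. Some genes are not reported here.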

Additional observations from a re-analysis of the deposited data

Results flagged for a closer look

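The effect of adding enzalutamide to DHT was tested for a difference between the lines (Ver minus Vc, edgeR quasi-likelihood test, interaction of line and treatment), and 45 of the genes named here passed it, 17 higher and 28 lower. All values below are differences of log2 changes, and line and sequencing lane cannot be told apart in them. Of the 45, 11 were called under every alternative run: NMNAT2 at -1.928, CYP1A1 at -1.754, STEAP4 at -1.354, ZBTB16 at -0.552, LIFR at -0.5114, UAP1 at -0.4577, ELOVL5 at -0.4566, TMPRSS2 at -0.4508, ERG at -0.4168, MYC at 0.4795 and PLA2G2A at 1.297. UAP1, which makes the sugar donor UDP-GlcNAc, stood at 128 and 146 CPM with DHT plus enzalutamide and 209 and 233 CPM with DHT in Ver, and at 208 and 211 CPM and 238 and 256 CPM in Vc. ELOVL5, a fatty acid elongase, stood at 139.8 and 133 CPM and 294 and 307 CPM in Ver, and at 179.5 and 166 CPM and 274 and 281.5 CPM in Vc. For both, Ver with both compounds was the lowest of these 4 groups.

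Lost under 1 alternative were FKBP5 at -0.872 (adjusted p = 0.176), NCAPD3 at -0.6632 (0.284), B3GALT5 at 0.9661 (0.349) and SNORA49 at 1.216 (0.118). Lost under 2 to 5 alternatives were CCDC141 at -1.539, ZNF184 at -1.072, ERO1A at -0.4651, PGM3 at -0.3794, ARF4 at -0.3296, SMS at -0.3054, ACPP at -0.2622, DHCR7 at 0.3335, MYBL2 at 0.7939, MCM2 at 0.8522, PKMYT1 at 1.27, CDH26 at 1.306, WNT2 at 1.413, RN7SKP255 at 1.678, MATK at 1.688 and GPR149 at 2.286. Without the first DHT library of Vc the difference was 0.56 for WNT2 (adjusted p = 0.817) and 0.51 for B3GALT5. Lost under 6 or more were SLC38A4 at -1.427, AC069029.1 at -1.233, HMGB3 at -1.123, SPCS3 at -0.3483, SEC24A at -0.3183, SEC63 at -0.3033, ESRP1 at -0.2781, HSP90AA1 at -0.2728, SEL1L at -0.2656, NDRG1 at -0.2113, SCD at 0.2596, SREBF1 at 0.3024, E2F1 at 0.826 and RIMS4 at 1.34. Without the first DHT plus enzalutamide library of Ver the difference was -0.14 for SEL1L (adjusted p = 0.619) and -0.14 for NDRG1 (adjusted p = 0.503).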

How the results depend on the processing

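The count of genes changed by enzalutamide on top of DHT in Ver was 6076 and ranged from 4331 to 6104 over 11 alternatives. With plain library totals, chosen after seeing the data, it was 6230, with 66.2% of calls higher. The count against control was 5117 (3591 to 5142) and that of effects differing with and without DHT 3767 (2759 to 3817). The difference between Ver and Vc was the count that moved most, with 291 genes, 225 to 327 over alternatives that kept all libraries and 93 to 357 with 1 library left out. The cause was not tested.

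Of 184 genes followed through the alternatives, 148 kept direction and call in all, 21 lost a call in some, 8 gained one, and 7 changed sign in some, none of them called in the main result. DST changed sign to -0.010873 with DESeq2-type size factors and -0.010963 with DESeq2, and ranged from -0.11189 to 0.14383 with 1 library left out. With plain library totals SREBF1 was at 0.055124, DHCR7 at 0.0077015 and SLC7A5 at 0.060167. With 1 library left out, ACTA2 ranged from -0.10545 to 1.0471, COL1A1 from -0.49627 to 0.14519, KRT15 from -1.1575 to 0.18622, SREBF1 from -0.098138 to 0.023231 and SLC7A5 from -0.81417 to 0.47934. The cause was not tested.

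Same-numbered libraries did not deviate together: the correlation between the DHT plus enzalutamide and DHT libraries of Ver was 0.102, and other pairs of groups gave -0.122 to 0.0911. With the replicate number as a block the 4 counts were 6102, 327, 3779 and 5126. A crossed pairing of DHT plus enzalutamide with control in Ver gave 5281 calls. Depth limits the precision of genes with few reads: for UGT2B7, at 1.05 CPM or less, the SE of the log2 change was 1.6.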
